A study of Mus musculus with 3 samples.

Results

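Tetraspanins are small multi-pass membrane proteins, and 9 of them are described here in tumour dendritic cells: *Cd63*, *Cd9*, *Cd81*, *Cd82*, *Cd37*, *Cd53*, *Cd151*, *Tspan3* and *Tspan13*. They were taken by name from the 31 tetraspanin genes among the 32285 genes of the count matrices, and all 9 symbols were found. Their UMI counts (unique molecular identifiers, 1 for each captured transcript) were summed over the 5806 type 1 conventional dendritic cells (cDC1s) of the deposited cell table, by library and by deposited cluster, with cluster 8 (255 cells) set against the others. Cells outside that table were used to place the same genes in other cell types of the sort.

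The cells came from MCA205 LA-OVA tumours, a transplanted mouse fibrosarcoma line carrying ovalbumin, which had grown on both flanks and were taken on day 5. There was 1 library for each of the 3 genotypes. WT mice carried no deletion, sGSN-/- mice lacked secreted gelsolin, an extracellular actin-binding protein, and sGSN-/-Clec9a-/- mice lacked both secreted gelsolin and DNGR-1, the dead cell receptor encoded by *Clec9a*. All mice received the same tumour line, so both deletions concern the host, and each library pooled tumours from males and females of its genotype. The sort took CD45+ Lineage- CD11c+ MHCII+ CD88- cells, and from these XCR1+ cDC1s, Sirpa+ cDC2s and their CD135+ CD43+ precursors (pre-cDCs) were mixed before loading. Across the whole study the mice were 6 to 20 weeks old.

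Tetraspanins hold partner proteins such as integrins, Fc and lectin receptors and MHC molecules in small membrane domains, and so take part in adhesion, migration, antigen presentation and vesicle traffic. CD63 lies mainly in late endosomes, lysosomes and the intraluminal vesicles that leave the cell as exosomes. CD81, CD9 and CD82 are mostly at the cell surface, where CD81 is part of the B cell coreceptor and CD9 associates with MHC class II on antigen-presenting cells. CD37 and CD53 are largely restricted to leukocytes, and CD151 is the partner of laminin-binding integrins. In the study's naming, cluster 8 is the activated cDC1 state marked by *Ccr7*, the receptor that guides mature dendritic cells to lymph nodes, and *Il12b*, a subunit of the cytokines IL-12 and IL-23. Cluster 10 is the activated state marked by *Cxcl9*, a chemokine for T cells, cluster 9 has genes of the NF-kB response, cluster 7 has interferon-stimulated genes, clusters 4 and 1 are early, clusters 5, 2, 3, 6 and 0 are resting, and cluster 11 is rich in mitochondrial transcripts.

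The stretches of DNA just upstream of a RefSeq start of *Cd63*, *Tspan3* and *Cd81* are shown because these genes were the ones that stood highest in cluster 8 relative to the other cDC1s. Each is 220 bases from RefSeq on GRCm38.p6, 5′ to 3′ on the gene's own strand, and no annotated exon lies in it. The *Cd63* stretch is at chr10:128909095-128909314 (+ strand), inside introns of longer annotated transcripts of the gene. The *Tspan3* stretch is at chr9:56161101-56161320 (- strand), inside an intron of 1 longer annotated transcript and upstream of the others, and the *Cd81* stretch at chr7:143052500-143052719 (+ strand). Capitals mark the matches to the motifs searched.
Cd63: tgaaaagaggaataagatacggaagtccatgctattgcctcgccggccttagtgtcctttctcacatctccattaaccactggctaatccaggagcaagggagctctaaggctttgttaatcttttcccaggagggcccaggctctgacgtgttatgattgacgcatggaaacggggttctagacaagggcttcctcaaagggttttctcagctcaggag
Tspan3: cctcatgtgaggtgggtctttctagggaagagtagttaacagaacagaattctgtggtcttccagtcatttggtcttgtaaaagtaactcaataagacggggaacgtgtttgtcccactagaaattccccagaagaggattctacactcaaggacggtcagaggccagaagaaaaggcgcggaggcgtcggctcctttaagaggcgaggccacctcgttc
Cd81: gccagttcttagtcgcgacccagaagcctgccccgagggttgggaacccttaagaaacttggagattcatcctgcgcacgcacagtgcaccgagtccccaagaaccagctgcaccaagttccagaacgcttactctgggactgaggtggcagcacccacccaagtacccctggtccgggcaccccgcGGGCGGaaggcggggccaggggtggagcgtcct
The search covered both strands for the GC box GGGCGG, the E box CACGTG, the TATA box TATAAA, the STAT motif TTCNNNGAA and the kappa B consensus. The *Cd81* stretch held 1 GGGCGG, a motif present in 28.5% of the 32851 RefSeq promoter windows of the mouse. The other motifs were present in 5.01%, 9.95%, 6.27% and 6.34% of those windows, in the order given above. No match to any of the 5 was found in the *Cd63* and *Tspan3* stretches, which says only that these letters are not there.

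The libraries held 12763, 8173 and 9273 barcodes with 176578136, 109270958 and 113411930 UMIs, in the order WT, sGSN-/- and sGSN-/-Clec9a-/-, an order kept for every set of 3 values below. Of the deposited cDC1s, 2316, 1712 and 1778 came from the 3 libraries, with a median of 14092, 14150 and 12231 UMIs. Levels are CPM, a gene's UMIs divided by all UMIs of the same cells and scaled to a total of 1000000. *Clec9a* stood at 168, 168 and 0.0931 CPM, the last from 2 UMIs. *Gsn* stood at 152, 169 and 167 CPM, but its UMIs cannot tell secreted from other gelsolin transcripts and check nothing here. Between 26 and 28 barcodes were shared by each pair of libraries, of which 2 or 3 were cDC1s.

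*Cd63* marked cluster 8. Cluster 8 held 637, 727 and 404 CPM of *Cd63*, and the other 11 clusters as 1 group held 1.96, 1.61 and 1.67 CPM. The 2 sets of values lie far apart in all 3 libraries, with means of 589 ± 167 and 1.75 ± 0.19 CPM (SD, n = 3 libraries). Cluster 8 made up 4.39% of the cDC1s and 3.63% of their UMIs and carried 1789 of the 1922 *Cd63* UMIs, or 93.1%. Among the other clusters, cluster 4 came next with 4.15 ± 1.52 CPM, and from there down each cluster overlapped its neighbour in the order. Cluster 10 had 2.26 ± 1.96 CPM from 2 UMIs, so the state led by *Cxcl9* did not share the high level. Cluster 11 had no *Cd63* UMI among 150984, for which the exact Poisson 95% interval reaches 24.4 CPM.

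*Tspan3*, a widely expressed family member, was also highest in cluster 8. It had 222, 227 and 169 CPM in cluster 8 against 12.3, 13.1 and 10.7 CPM in the other clusters, and cluster 8 held 40.0% of its UMIs. No cluster reached the range of cluster 8, and below it the ranges of neighbouring clusters overlapped. Over the 12 clusters the log2 levels of *Cd63* and *Tspan3* had a Pearson correlation of 0.919, a description over clusters from the same libraries, of which cluster 8 lies far from the rest.

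*Cd81* was graded over all clusters rather than on in one and off in the rest. It was highest in cluster 8, with 448, 413 and 454 CPM. Clusters 9 and 0 came next with 241 ± 69.6 and 238 ± 19.5 CPM, overlapping each other, and both lay below cluster 8 in every library. Resting clusters 3, 2 and 6 held 165 ± 11.5, 158 ± 13.0 and 142 ± 26.3 CPM. Early clusters 1 and 4 held 58.2 ± 13.3 and 31.9 ± 8.75 CPM, and cluster 10 held 7.09, 87.0 and 46.9 CPM from 43 UMIs. Clusters 11, 9 and 10, the smallest by cell number, had the widest spread between libraries, and neighbours in the order from cluster 5 through 7, 11, 1 and 10 to 4 overlap, although cluster 5 lay above cluster 1, and cluster 1 above cluster 4, without overlap.

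*Cd37* and *Cd53*, the leukocyte tetraspanins, had their lowest mean levels in cluster 8. *Cd37* had 20.3, 27.6 and 33.0 CPM there against 104, 89.1 and 94.4 CPM in the other clusters, and its next lowest cluster was cluster 10 with 42.5, 41.9 and 60.2 CPM. Both activated end states were thus low in *Cd37*, and all 3 values of cluster 8 lay below all 3 of cluster 10. *Cd53* had 130, 110 and 256 CPM in cluster 8 against 276, 264 and 282 CPM elsewhere. The sGSN-/-Clec9a-/- value of *Cd53* stood apart from the other 2 in cluster 8 and lay above all 3 values of cluster 2, the next lowest, so *Cd53* was not lowest in cluster 8 in that library.

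*Cd9* and *Tspan13* varied less. *Cd9* was high in cluster 8 (449, 403 and 530 CPM), but cluster 11 overlapped it, and clusters 0 and 5 lay just below with 386 ± 12.9 and 374 ± 0.32 CPM. Its lowest level was in cluster 4, with 222 ± 16.9 CPM. *Tspan13* was highest in cluster 6, with 173 ± 5.82 CPM and no overlap with the next, and lowest in cluster 8, with 80.1 ± 4.82 CPM, where it overlapped cluster 9. *Cd82* ranged from 54.0 ± 14.4 CPM in cluster 8 to 88.9 ± 53.2 CPM in cluster 11, whose 60 cells had a median of 2348 UMIs. *Cd151* was at the limit of detection throughout, with 172 UMIs in all cDC1s and 7 in cluster 8.

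**Figure D1:**
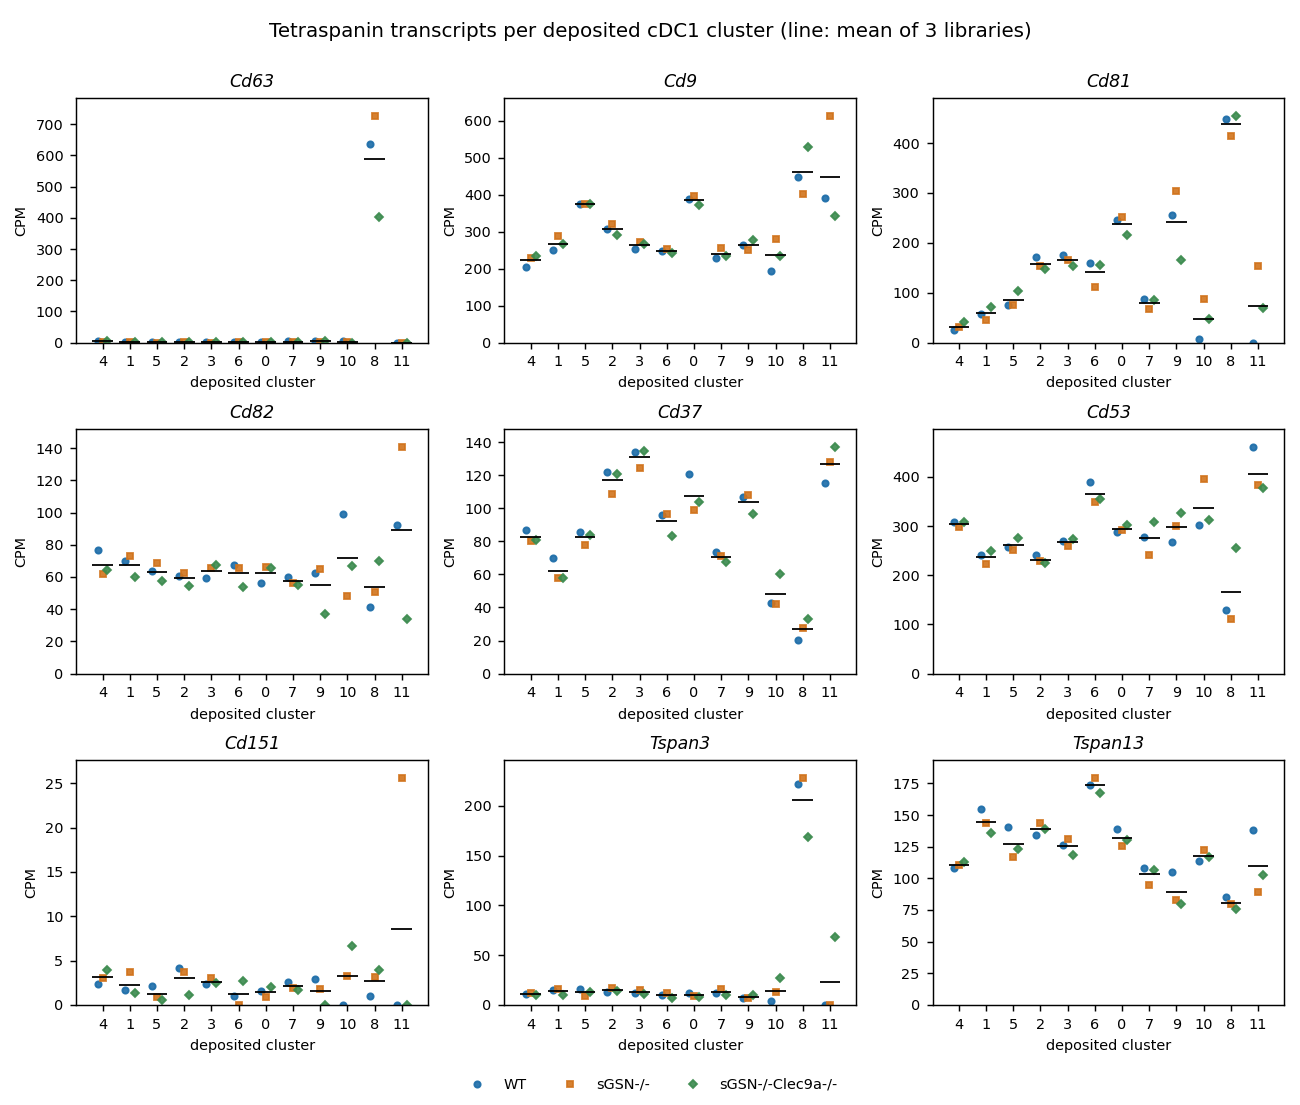
Level of each of the 9 tetraspanins in CPM (vertical axes, each with its own scale) in the 12 deposited cDC1 clusters, ordered from early through resting to activated and cluster 11, with 1 point per library and a line at the mean of 3 libraries. *Cd63* and *Tspan3* stand far above the other clusters in cluster 8, at 589 and 206 CPM, *Cd81* is graded from 31.9 CPM in cluster 4 to 438 CPM in cluster 8, and *Cd37* is lowest in cluster 8 at 27.0 CPM.

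The deposited clusters were called on these same counts, tetraspanins included, so the levels above are a description. For a test, every cell's UMIs were split binomially into 2 sets, cells were regrouped on the first set with every tetraspanin left out of the clustering genes, and the second, held-out set was compared. The cluster with the highest *Ccr7* level in the first set held 214 cells, 211 of them from cluster 8, and is called Ccr7-high below. The cluster with the highest *Cxcl9* level held 93 cells, 68 of them from cluster 10, and is called Cxcl9-high. Held-out sums per library were tested by edgeR (quasi-likelihood), p-values being adjusted by Benjamini and Hochberg's method with a threshold of 0.05, with the 3 libraries as replicates, so the spread also holds the differences between genotypes and pools.

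Ccr7-high cDC1s differed from the other cDC1s in 7 of the 9 tetraspanins, 4 higher and 3 lower. *Cd63* held-out values were 699, 763 and 572 CPM in Ccr7-high cells against 2.52, 2.41 and 1.61 CPM in the others, *Tspan3* values were 221, 234 and 214 CPM against 12.8, 15.2 and 10.9 CPM, and *Cd81* values were 431, 440 and 533 CPM against 144, 128 and 134 CPM. In each case the lowest Ccr7-high library lay above the highest of the others, and how many of all genes separate in this way was not counted. *Cd63* rose by 8.44 ± 0.15 on the log2 scale (SE, n = 3 libraries), with an adjusted p of 5.19e-23 by edgeR's quasi-likelihood test. It rested on 881 against 84 UMIs, a ratio of 318 with an exact 95% counting interval from 254 to 403. *Tspan3* rose by 4.29 ± 0.15 (adjusted p = 5.71e-18), *Cd81* by 1.92 ± 0.11 (adjusted p = 1.00e-13) and *Cd9* by 0.66 ± 0.10 (adjusted p = 9.83e-06). *Cd9* thus moved less than 2-fold, from 290, 309 and 300 CPM to 435, 402 and 445 CPM.

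*Cd37*, which in dendritic cells is known to stabilise the fungal receptor dectin-1 at the surface, had 8.40, 15.5 and 38.5 CPM in Ccr7-high cells against 105, 89.95 and 91.6 CPM in the others, with 20 UMIs behind the first values. It fell by 2.39 ± 0.27 on the log2 scale (edgeR adjusted p = 7.98e-08). *Cd53* had 107, 92.8 and 110 CPM against 281, 270 and 282 CPM and fell by 1.29 ± 0.13 (adjusted p = 1.59e-08). *Tspan13* had 69.3, 75.6 and 44.0 CPM against 136, 131 and 126 CPM and fell by 0.78 ± 0.16 (adjusted p = 0.00032). The groups did not overlap for any of the 3, a separation not counted over all genes. *Cd82* differed by -0.18 ± 0.18 (adjusted p = 0.471), with 44.1, 49.8 and 55.0 CPM against 62.7, 63.1 and 59.1 CPM, also without overlap. With another random division of the UMIs its difference was -0.51 and passed (adjusted p = 0.040). *Cd151* had 3 UMIs in Ccr7-high cells, a ratio to the others of 1.10 with a counting interval from 0.222 to 3.32, and did not pass (adjusted p = 0.835).

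Of all 9927 genes tested in this comparison 38.3% passed, 19.3% higher and 18.9% lower, and the counts of tetraspanins are to be read against these shares. Without TMM factors the median of all genes moved by -0.17 on the log2 scale and the higher share of the calls went from 50.5% to 38.5%, while the 7 tetraspanins kept their directions and calls. The macrophage markers summed to 573 CPM in cluster 8 of the WT library against 54.3 and 71.8 CPM in the other 2. In the other 11 clusters pooled they summed to between 45.7 and 64.5 CPM. Clusters 4, 7, 10 and 11 each held more than cluster 8 did in both libraries outside WT. None of the 7 markers was at 0 in cluster 8. In Ccr7-high cells the 7 NK markers summed to 26.3, 153 and 46.6 CPM against 18.5, 44.6 and 26.4 CPM in the other 11 clusters, and the 7 T cell markers to 17.9, 35.2 and 5.49 CPM against 3.54, 6.64 and 4.58 CPM. The 7 cDC1 markers summed to 1320, 1209 and 1177 CPM in them against 3681, 3588 and 3639 CPM. The 5 fibroblast or tumour markers summed to 9.45, 5.16 and 21.9 CPM in Ccr7-high cells against 1.86, 1.97 and 1.05 CPM in the other 11 clusters. The 6 proliferating markers summed to 85.1, 104 and 21.9 CPM against 22.8, 26.8 and 24.3 CPM. The part of the NK, T cell, cDC1, fibroblast or tumour and proliferating markers in the differences was not tested. With every cell of over 1 *C1qa*, *C1qb*, *C1qc* or *Apoe* UMI left out, the difference of *Cd63* was 8.70, that of *Tspan3* 4.35, that of *Cd81* 2.004 and that of *Cd37* -2.45.

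In Cxcl9-high cDC1s, 1 of the 9 tetraspanins passed the test. *Cd81* had 28.2, 88.4 and 41.6 CPM there against 154, 145 and 143 CPM in all other cDC1s and fell by 1.53 ± 0.24 on the log2 scale (edgeR adjusted p = 0.000168). The 6 cDC2 markers summed to 120, 380 and 98.2 CPM in Cxcl9-high cells, against 85.3, 76.5 and 58.7 CPM in cDC1-like cells. The 6 activated cDC markers summed to 447, 72.2 and 65.4 CPM in Cxcl9-high cells, with *Fscn1* and *Cacnb3* at 0. In cDC1-like cells these 6 summed to 14.7, 14.9 and 12.6 CPM. That class is not the group tested against. The latter includes the Ccr7-high cells, where the 6 summed to 7128, 5917 and 4957 CPM. Neither marker list was summed over the group tested against. The part of the cDC2 and activated cDC markers in the difference of *Cd81* was not tested. *Cd37* had 56.4, 55.8 and 71.3 CPM against 103, 86.8 and 91.0 CPM, without overlap, and a difference of -0.70 ± 0.21 that did not pass (adjusted p = 0.0528). It passed with no filter on low counts (adjusted p = 0.0314), with the deposited clusters (adjusted p = 0.00463) and with thinned cells (adjusted p = 0.00101). The deposited clusters were called on these same counts, and thinned cells include UMIs of the first set. Neither setting is therefore a held-out test. *Cd63* had 1 UMI in Cxcl9-high cells and a difference of -3.96 ± 1.72 (adjusted p = 0.214) from a group of others that includes the Ccr7-high cells. With the library as a block this difference was -4.00 and passed (adjusted p = 0.000293), as it did with no filter on low counts (-4.01, adjusted p = 8.27e-05). The UMI was in the WT library, so the fitted value is no bound, and it ranged from -10.2 without WT to -2.85 without sGSN-/-. Against resting cDC1s, with 43 UMIs, the ratio of resting to Cxcl9-high cells was 1.07 with a counting interval from 0.181 to 43.1. *Cd151* also rested on 1 UMI, a ratio of 0.755 with an interval from 0.0189 to 4.32. For *Cd9*, *Cd82*, *Cd53*, *Tspan3* and *Tspan13* the differences lay between -0.63 and 0.42, of which *Cd9* passed with thinned cells (-0.69, adjusted p = 0.00452). Over all 9742 genes 6.05% passed, 3.04% higher and 3.01% lower, and without TMM factors the higher share of calls went from 50.3% to 61.5%.

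Set directly against each other, the activated states differed in 7 of the 8 tetraspanins tested. Ccr7-high cells were above Cxcl9-high cells in *Cd63*, with 881 against 1 UMIs and a ratio of 424 whose counting interval runs from 75.8 to 16746. *Tspan3* was higher by 4.17 ± 0.40 on the log2 scale (edgeR adjusted p = 8.90e-07), *Cd81* by 3.25 ± 0.28 (adjusted p = 3.70e-07) and *Cd9* by 0.90 ± 0.16 (adjusted p = 0.000377). Lower in Ccr7-high cells were *Cd37*, at -1.71 ± 0.41 (adjusted p = 0.00323), *Cd53*, at -1.62 ± 0.20 (adjusted p = 8.75e-06), and *Tspan13*, at -0.84 ± 0.24 (adjusted p = 0.0108). With the deposited clusters *Cd37* did not pass (adjusted p = 0.0996). *Cd82* had a difference of -0.66 ± 0.28 (adjusted p = 0.0665), which passed without TMM factors (adjusted p = 0.0256), and *Cd151* was too low to be tested. The call of *Tspan13* was lost without the WT library (adjusted p = 0.0582) and without the sGSN-/-Clec9a-/- library (adjusted p = 0.0738). It was also lost with no filter (adjusted p = 0.0639), DESeq2 (adjusted p = 0.0567), the deposited clusters (adjusted p = 0.150) and thinned cells (adjusted p = 0.644), and with another division its difference was 0.0095. Of the 2723 genes tested 46.7% passed, 24% higher and 22.7% lower, and without TMM factors the higher share of calls went from 51.5% to 39.7%. This comparison uses the same cells as the 2 before it and is no separate evidence.

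**Figure D2:**
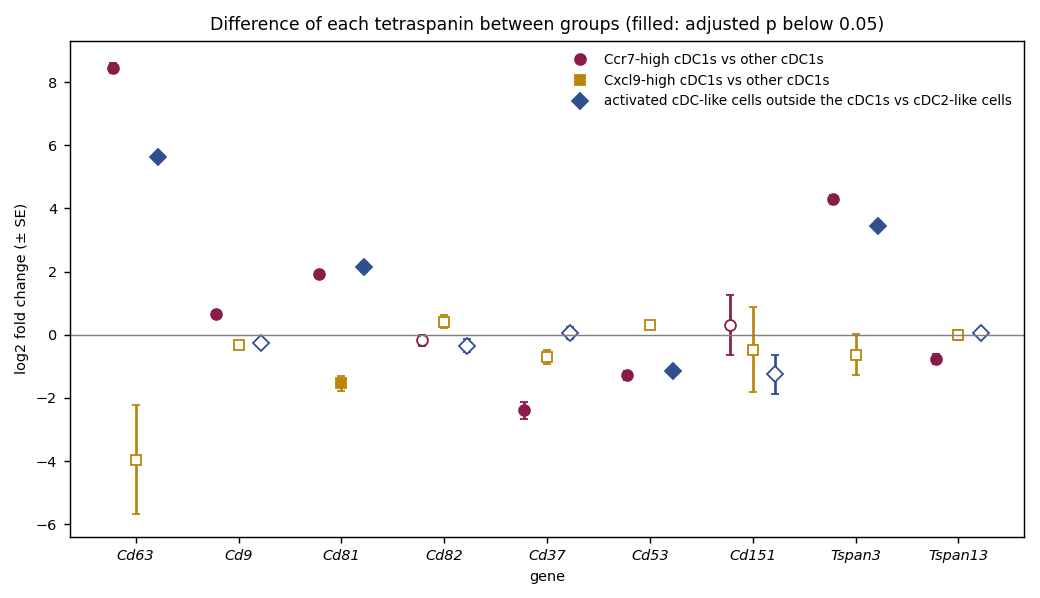
Held-out log2 fold change of each tetraspanin with its SE (vertical axis) in 3 comparisons over 3 libraries each, with filled symbols where the adjusted p of edgeR's test was below 0.05. In Ccr7-high cDC1s *Cd63* (8.44), *Tspan3* (4.29) and *Cd81* (1.92) lie highest and *Cd37* (-2.39) lowest, in Cxcl9-high cDC1s only *Cd81* (-1.53) is filled, and in the activated cells outside the deposited cDC1s *Cd63* (5.63), *Tspan3* (3.45) and *Cd81* (2.16) lie highest.

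The shares of cells with a UMI are given beside the levels. A *Cd63* UMI was found in 62.4% of cluster 8 cells (exact 95% interval 56.1 to 68.3) and in 1.87% of the other cDC1s (1.53 to 2.27). NK-like cells, a type left over in spite of the NK1.1- gate, had *Cd63* in 2.57% of cells at a median of 6922.5 UMIs, against medians of 10867 UMIs in cluster 8 and from 2348 (cluster 11) to 14925 UMIs (cluster 0) in the other clusters. After each cell was thinned to 3900 UMIs, the shares were 54.0%, 0.658% and 1.16%, so the share in the other cDC1s was no higher than in NK-like cells and is not read as expression. Whether the UMIs of either come from free RNA was not tested. Thinning left 198 cells of cluster 8 (57 left out), 5320 other cDC1s (231 left out) and 2849 NK-like cells (845 left out).

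*Tspan3* was found in 37.9% of thinned cluster 8 cells, in 4.17% of the other cDC1s and in 3.79% of NK-like cells, against 49.4%, 14.6% and 9.39% before thinning. Outside cluster 8, its share was near that of NK-like cells. *Cd81* was found in 58.6%, 32.0% and 3.93% of thinned cells (69.0%, 53.8% and 7.17% before), well above NK-like cells in both cDC1 groups. *Cd53* was found in 28.3% of thinned cluster 8 cells and 64.8% of the others (39.6% and 93.0% before), *Cd37* in 11.1% and 29.8% (19.6% and 63.2% before) and *Cd82* in 15.7% and 22.05% (28.2% and 53.8% before). *Cd9* was found in 67.7% and 64.7% after thinning, with overlapping intervals, although its share before thinning was lower in cluster 8 (74.9% against 90.7%). Intervals cover counting error only.

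**Figure D3:**
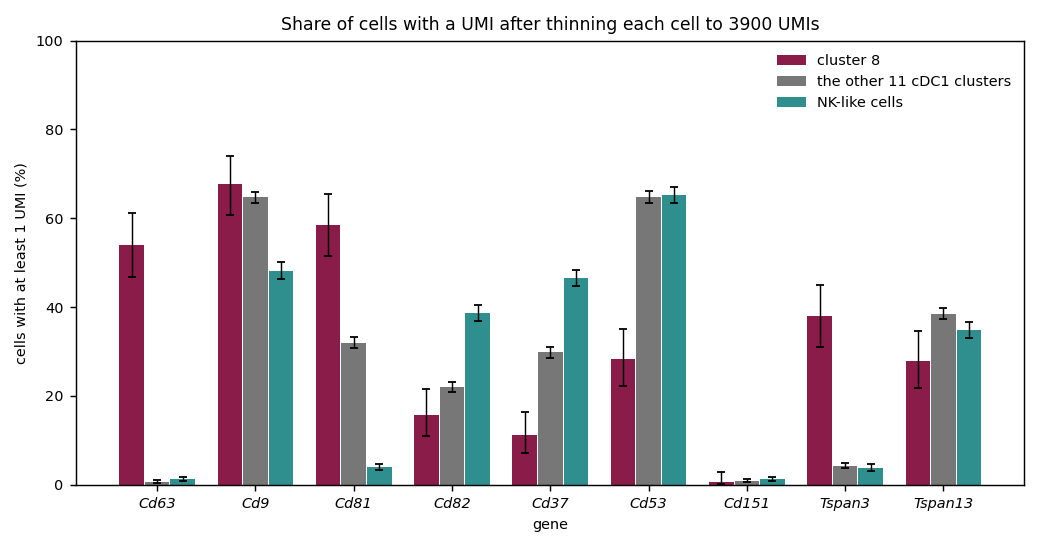
Percent of cells with at least 1 UMI of each tetraspanin (vertical axis, bars with exact binomial 95% intervals) in cluster 8, the other 11 cDC1 clusters and NK-like cells, after each cell was thinned to 3900 UMIs. *Cd63* reaches 54.0% in cluster 8 and 0.658% in the other clusters, whereas *Cd53* is at 28.3% in cluster 8 and 64.8% in the others and *Cd37* at 11.1% and 29.8%.

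Within cluster 8 the tetraspanins were unevenly spread. *Cd63* had a median of 2 UMIs per cell and a maximum of 56, with 96 of 255 cells at 0 and 93 cells at 5 or more, while 5447 of the 5551 other cDC1s were at 0 and 8 had 3 or more. The 211 cluster 8 cells that were also Ccr7-high held 733 CPM of *Cd63*, and the other 44 held 42.4 CPM, with a *Cd63* UMI in 70.1% and 25% of cells. *Ccr7* itself was at 2515 CPM in the 211 cells and 229 CPM in the 44, and *Il12b* at 2350 and 57.3 CPM, so part of cluster 8 was low in the genes that name it. *Tspan3* was at 247 and 17.4 CPM in the same cells and *Cd81* at 456 and 299 CPM, whereas *Cd53* was at 98.1 CPM in the former and 421 CPM in the latter and *Cd37* at 19.4 and 64.8 CPM. The 44 cells had a median of 8032.5 UMIs and the 211 cells one of 10979. Levels of both parts come from all UMIs, including the first set on which the cells were grouped and the Ccr7-high cluster was chosen. They are therefore no independent test of how *Ccr7* and *Il12b* differ between the parts. In the sGSN-/-Clec9a-/- library, whose cluster 8 stood apart in *Cd53*, the Ccr7-high cells held 110 CPM of it, close to the other libraries.

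Single cells showed the same pairing of genes. Among the 198 thinned cluster 8 cells, *Tspan3* was detected in 53.3% of the 107 cells with a *Cd63* UMI and in 19.8% of the 91 without. *Cd53* was detected in 13.1% and 46.2% of the same cells, *Cd37* in 7.48% and 15.4%, and *Cd81* in 63.6% and 52.7%. These shares describe cells of 3 pooled libraries and carry no test.

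Early cDC1s (1212 cells) differed from resting cDC1s (3590 cells) in 4 of the 9 tetraspanins. These groups are clusters of the first set in which most cells were from deposited clusters 4 and 1, or from 5, 2, 3, 6 and 0. The deposited labels came from all counts, so the naming of these groups was not held out. *Cd81* had 44.2, 43.1 and 68.9 CPM in early cells against 175, 164 and 164 CPM in resting cells. The difference was -1.69 ± 0.12 on the log2 scale (edgeR adjusted p = 1.25e-09). Markers of other types moved with it. The 6 cDC2 markers summed to 328, 260 and 342 CPM in cluster 4 and to 60.5, 61.8 and 50.1 CPM in cluster 1, which make up most of the early cells, against 18.9 to 47.3 CPM in clusters 0, 2, 3, 5 and 6. The 7 macrophage markers summed to 133, 85.9 and 160 CPM in cluster 4 against 31.7 to 60.3 CPM in those clusters, and 9.57% of the cells of cluster 4 were scored as doublets. The 7 cDC1 markers summed to 1925, 2083 and 1989 CPM in cluster 4 and to 2731, 2843 and 2800 CPM in cluster 1. In clusters 0, 2, 3, 5 and 6 they ranged from 2977 to 5689 CPM. Without doublets the difference of *Cd81* was -1.71 and still passed, and the part of the cDC1, cDC2 and macrophage markers was not tested. *Cd37* had 81.0, 60.4 and 63.9 CPM against 117, 104 and 105 CPM, a difference of -0.64 ± 0.10 (adjusted p = 2.97e-05), and *Cd9* 225, 276 and 268 CPM against 319, 326 and 319 CPM, a difference of -0.31 ± 0.08 (adjusted p = 0.00514). *Cd82* was higher in early cells by 0.27 ± 0.08 (adjusted p = 0.0165). Without the WT library *Cd9* (adjusted p = 0.051) and *Cd82* (adjusted p = 0.225) no longer passed, and *Cd82* did not pass with no filter on low counts, DESeq2, another division of the UMIs, the deposited clusters or thinned cells. *Cd63*, *Tspan3*, *Cd53*, *Cd151* and *Tspan13* did not pass, with *Cd63* at 2.80 ± 0.72 CPM in early and 1.76 ± 0.37 CPM in resting cells. With the deposited clusters *Cd63* was higher in early cells by 0.86 (adjusted p = 0.0246). Those clusters were called on the same counts, so this is no independent test. Across all 9701 genes 32.2% passed, 15.9% higher and 16.2% lower in early cells.

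The same genes were then followed through the other cells of the sort, grouped on the first set of UMIs and named from marker genes as cDC1-, cDC2-, pre-cDC-, activated cDC-, macrophage-, pDC- and NK-like. Each class below is described by its held-out levels. *Cd63* stood at 642 ± 13.2 CPM in activated cDC-like cells, 98.2 ± 9.16 CPM in macrophage-like cells, 11.2 ± 0.22 CPM in cDC2-like cells and 2.52 ± 0.92 CPM in cDC1-like cells. *Tspan3* reached 230 ± 29.3 CPM in activated cDC-like cells and at most 39.0 ± 3.59 CPM in the other named or mixed classes measured. Proliferating cells, clusters with markers of both cDC1s and macrophages and an unnamed cluster of 792 cells were left out of these levels. Among the named classes measured both genes therefore peaked in the same one. *Cd81* was at 252 ± 28.3 CPM in activated cDC-like, 181 ± 13.3 CPM in macrophage-like and 126 ± 8.15 CPM in cDC1-like cells, and at 22.7 ± 2.26 CPM in cDC2-like and 5.95 ± 2.24 CPM in pre-cDC-like cells.

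Among the named classes measured, *Tspan13* was highest in pDC-like cells, plasmacytoid dendritic cells that are known for type I interferon, with 575, 500 and 380 CPM, and lowest in macrophage-like cells with 55.6 ± 2.003 CPM. *Cd37* was highest in pDC-like (184 ± 22.2 CPM) and NK-like cells (149 ± 7.81 CPM), as was *Cd82*, with 115 ± 14.9 and 133 ± 12.1 CPM. *Cd9* was highest in macrophage-like cells (450 ± 8.76 CPM) and low in pre-cDC-like cells (61.8 ± 7.02 CPM). *Cd53* was lowest in activated cDC-like cells (115 ± 13.3 CPM), below every other named class measured in all libraries. *Cd151* did not exceed 10.9 ± 1.01 CPM, its level in macrophage-like cells.

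**Figure D4:**
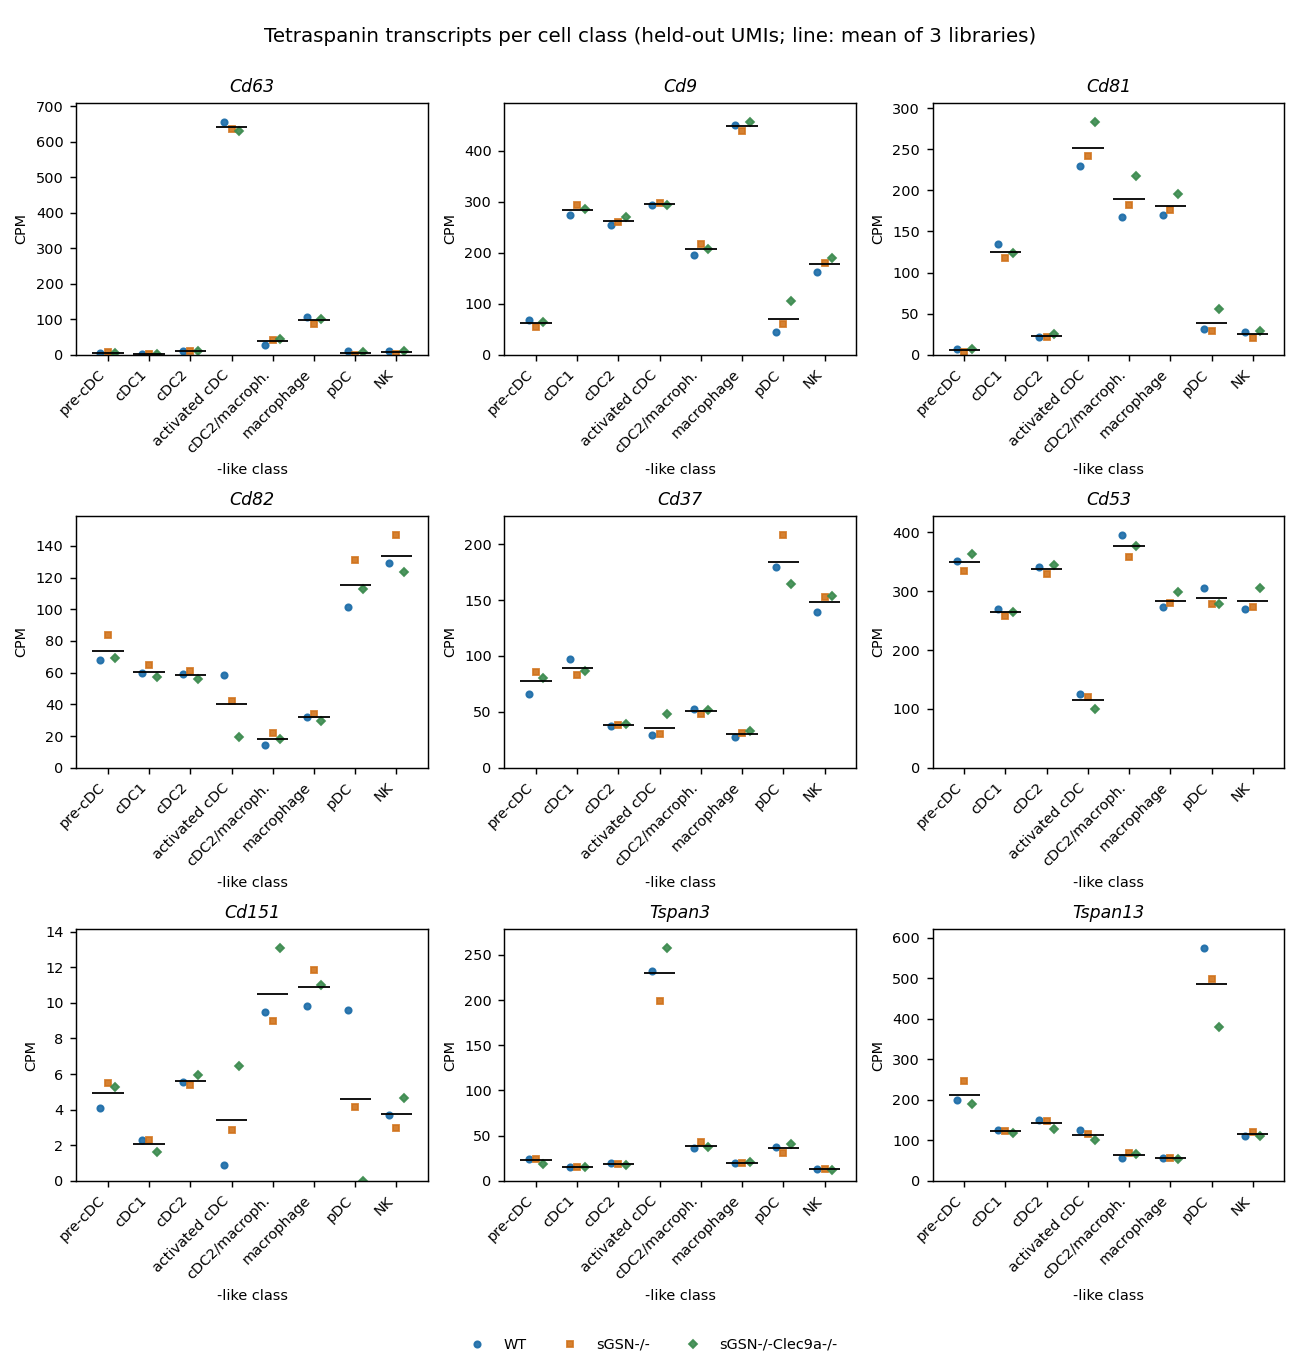
Held-out level of each tetraspanin in CPM (vertical axes, each with its own scale) in 8 classes of cells from the 3 libraries, with 1 point per library and a line at the mean. *Cd63* and *Tspan3* peak in activated cDC-like cells (642 and 230 CPM), *Cd81* is high in activated cDC-, macrophage- and cDC1-like cells, *Tspan13* peaks in pDC-like cells (485 CPM), and *Cd53* is lowest in activated cDC-like cells (115 CPM).

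The subsets differed in most tetraspanins. cDC1-like cells were above cDC2-like cells in *Cd81*, by 2.41 ± 0.09 on the log2 scale, and in *Cd37*, by 1.16 ± 0.08 (edgeR adjusted p = 2.51e-12 and 3.30e-09), and below them in *Cd63* (-2.19 ± 0.19), *Cd151* (-1.50 ± 0.19), *Cd53* (-0.43 ± 0.06), *Tspan3* (-0.32 ± 0.09) and *Tspan13* (-0.29 ± 0.06). *Cd9* (0.047 ± 0.064) and *Cd82* (-0.021 ± 0.065) did not pass. These are 7 of 9 calls where 58.3% of 11476 genes passed, 28.4% higher and 29.9% lower, so the count itself is near the background. *Tspan3* did not pass without the WT library (adjusted p = 0.12) or with DESeq2 (adjusted p = 0.0606). Macrophage-like cells were above cDC2-like cells in *Cd63* by 3.08 ± 0.09, *Cd81* by 2.94 ± 0.09, *Cd151* by 0.87 ± 0.15 and *Cd9* by 0.72 ± 0.06. They were below them in *Tspan13* (-1.42 ± 0.07), *Cd82* (-0.94 ± 0.07), *Cd37* (-0.39 ± 0.09) and *Cd53* (-0.31 ± 0.07). In this comparison 36.1% of 10544 genes passed, 18.2% higher and 17.9% lower, with a higher share of calls of 50.4% with and 60.9% without TMM factors. *Cd37* did not pass without the WT library (adjusted p = 0.0616). *Tspan3*, with a difference of 0.04, had one of -0.42 with thinned cells (adjusted p = 0.0194).

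Pre-cDC-like cells, the blood-borne precursors of both subsets, had 7.14, 3.37 and 7.35 CPM of *Cd81* against 134, 118 and 124 CPM in cDC1-like cells, a difference of -4.42 ± 0.15 (edgeR adjusted p = 3.58e-12). *Cd9* (-2.29 ± 0.10) and *Cd37* (-0.33 ± 0.10) were lower too. *Cd151* (1.09 ± 0.24), *Cd63* (0.89 ± 0.29), *Tspan13* (0.67 ± 0.08), *Tspan3* (0.44 ± 0.11) and *Cd53* (0.30 ± 0.08) were higher, and *Cd82* did not pass (0.16 ± 0.08). The 6 cDC2 markers summed to 1265, 1233 and 1168 CPM in pre-cDC-like cells against 85.3, 76.5 and 58.7 CPM in cDC1-like cells. The 6 pDC markers summed to 504, 709 and 472 CPM against 59.4, 59.1 and 48.5 CPM. The part of these markers in the differences was not tested. In this comparison 51.4% of 11133 genes passed, 25.5% higher and 25.9% lower, the median of all genes moved by 0.11 without TMM factors, and the higher share of calls went from 49.6% to 60.7%. *Cd63* did not pass without the sGSN-/- library (adjusted p = 0.0826), without doublets (adjusted p = 0.106) or with thinned cells (adjusted p = 0.0770). *Cd37* did not pass without TMM factors (adjusted p = 0.0971), with which setting *Cd82* did (0.27, adjusted p = 0.0318), and *Cd37* (adjusted p = 0.293) and *Tspan3* (adjusted p = 0.0815) did not pass without the WT library. From pre-cDC-like through early to resting and Ccr7-high cells the mean level of *Cd81* was 5.95, 52.1, 167 and 468 CPM, values from 2 separate groupings of overlapping cells set side by side. The cDC1-like and cDC2-like classes recur in these comparisons, which are therefore not independent of each other.

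Activated cDC-like cells that were not among the deposited cDC1s, 211 cells (92, 93 and 26), allowed the 9 genes to be measured in cells the deposited clusters did not use. Of the 7 genes called in Ccr7-high cDC1s, 4 passed here. *Cd63* had 615, 522 and 493 CPM in them against 11.29, 10.97 and 11.39 CPM in cDC2-like cells and rose by 5.63 ± 0.12 on the log2 scale (edgeR adjusted p = 3.21e-18). *Tspan3* had 236, 167 and 225 CPM against 19.7, 18.7 and 17.0 CPM and rose by 3.45 ± 0.14 (adjusted p = 9.09e-14). *Cd81* had 87.0, 109 and 107 CPM against 21.4, 21.4 and 25.4 CPM and rose by 2.16 ± 0.16 (adjusted p = 8.27e-10), and *Cd53* fell from 341, 329 and 344 to 146, 155 and 145 CPM, by 1.16 ± 0.11 (adjusted p = 4.19e-08). No groups overlapped for these 4 genes, and the share of all genes without overlap was not counted. *Cd37* (0.06 ± 0.18), *Tspan13* (0.06 ± 0.12), *Cd9* (-0.25 ± 0.11), *Cd82* (-0.34 ± 0.21) and *Cd151* (-1.25 ± 0.61) did not pass. *Cd9*, which rose in Ccr7-high cDC1s, was lower here with no filter (-0.37, adjusted p = 0.00999) and with thinned cells (-0.69, adjusted p = 0.000474), and *Cd82* was lower with no filter (-0.46, adjusted p = 0.0478) and without WT (-0.89, adjusted p = 0.0167). Over 9474 genes 29.9% passed, 16.3% higher and 13.6% lower.

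These cells also held markers of other types. Their cDC1 markers summed to 640, 764 and 1166 CPM, against 228, 261 and 234 CPM in cDC2-like cells. Their macrophage markers summed to 1097, 2027 and 1807 CPM, against 522, 446 and 462 CPM in cDC2-like cells. Their NK markers summed to 28.3, 402 and 129 CPM, against 23.5, 80.7 and 43.7 CPM in cDC2-like cells. Their T cell markers summed to 34.8, 24.8 and 5.36 CPM, against 3.42, 8.35 and 5.31 CPM in cDC2-like cells. Of these activated cells, 17.5% were among the barcodes with the highest doublet scores. With every cell of an *Xcr1*, *Clec9a* or *Cadm1* UMI left out *Cd63* differed by 5.91, *Tspan3* by 3.49, *Cd81* by 1.57 and *Cd53* by -1.38. In every library macrophage-like cells were above these cells in *Cd81*, with 170, 176 and 196 CPM, and in *Cd53*, and below them in *Cd63* and *Tspan3*. Without doublets the differences were 5.86 for *Cd63*, 3.57 for *Tspan3*, 1.79 for *Cd81* and -1.46 for *Cd53*, and all 4 passed. The part of the macrophage, NK and T cell markers was not tested.

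Whether the change on activation differed between cDC1s and the cells outside was tested as an interaction, added after the separate results were seen. The change was more positive in cDC1s for *Cd63*, by 2.77 ± 0.23 on the log2 scale (edgeR adjusted p = 1.11e-09), for *Cd9* by 0.87 ± 0.14 (adjusted p = 8.32e-05) and for *Tspan3* by 0.79 ± 0.20 (adjusted p = 0.00672). It was more negative in cDC1s for *Cd37*, by -2.49 ± 0.36 (adjusted p = 1.37e-05), and for *Tspan13*, by -0.88 ± 0.20 (adjusted p = 0.00363). *Cd63* stood at 678 ± 97.5 and 543 ± 63.5 CPM in the activated cells of the 2 kinds, ranges of 572 to 763 and 493 to 615 CPM that overlap. Its references were 2.18 ± 0.50 CPM in other cDC1s, from 84 UMIs, and 11.2 ± 0.22 CPM in cDC2-like cells. The references are unlike, since other cDC1s include early, resting and Cxcl9-high cells whereas 1 class was the reference outside. The interaction cannot tell a different change on activation from different reference levels. The differences of *Cd81* (-0.29 ± 0.17), *Cd53* (-0.17 ± 0.18), *Cd82* (0.12 ± 0.31) and *Cd151* (1.53 ± 1.19) did not pass, which does not show that they were alike. Of 10187 genes 12.6% passed, 6.26% higher and 6.35% lower, and without TMM factors the median moved by -0.12 and the higher share of calls from 49.6% to 37.0%. *Tspan3* did not pass without the sGSN-/- library (adjusted p = 0.126), nor *Tspan13* without the WT library (adjusted p = 0.0965) or with another division of the UMIs (adjusted p = 0.307).

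Between genotypes there was 1 library each, so values are given with exact Poisson 95% intervals of counting error and no test. Over all cDC1s *Cd63* stood at 22.03 CPM (20.5 to 23.7) in WT, 40.7 CPM (38.2 to 43.4) in sGSN-/- and 11.3 CPM (9.94 to 12.8) in sGSN-/-Clec9a-/- cells. With cluster 8 taken out the values were 1.96 (1.502 to 2.51), 1.61 (1.13 to 2.24) and 1.67 CPM (1.16 to 2.32), and these intervals overlap. Cluster 8 held 84, 114 and 57 cells in the 3 libraries, and its own *Cd63* level had intervals of 590 to 688, 680 to 775 and 351 to 462 CPM. In Ccr7-high cells of the held-out UMIs the intervals were 626 to 779, 694 to 837 and 467 to 693 CPM, so the last 2 just fail to meet and the first overlaps both. With the 12 clusters weighted equally *Cd63* stood at 55.2, 61.9 and 35.3 CPM.

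*Tspan3* was likewise highest in sGSN-/- and lowest in sGSN-/-Clec9a-/- cells over all cDC1s, with 18.9 (17.4 to 20.4), 24.7 (22.7 to 26.8) and 14.5 CPM (13.0 to 16.2). Without cluster 8 it stood at 12.3, 13.1 and 10.7 CPM. With clusters weighted equally it stood at 27.7, 29.6 and 29.8 CPM, an order that differs from that of *Cd63*. That weighting counts cluster 11, of 60 cells, like any other, and *Tspan3* ranged there from 0 to 68.4 CPM between libraries. The order without cluster 11 was not computed, so this difference in order is not read further. *Cd81* differed less, with 155, 145 and 139 CPM over all cDC1s and 146, 130 and 132 CPM without cluster 8. The 3 libraries ran from 299 to 316 CPM in *Cd9*, from 59.9 to 64.8 CPM in *Cd82*, from 256 to 281 CPM in *Cd53* and from 125 to 133 CPM in *Tspan13*, and *Cd37* stood at 101, 85.8 and 92.9 CPM. Whether the mice, the pools or the genotypes set such differences cannot be told apart.

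**Figure D5:**
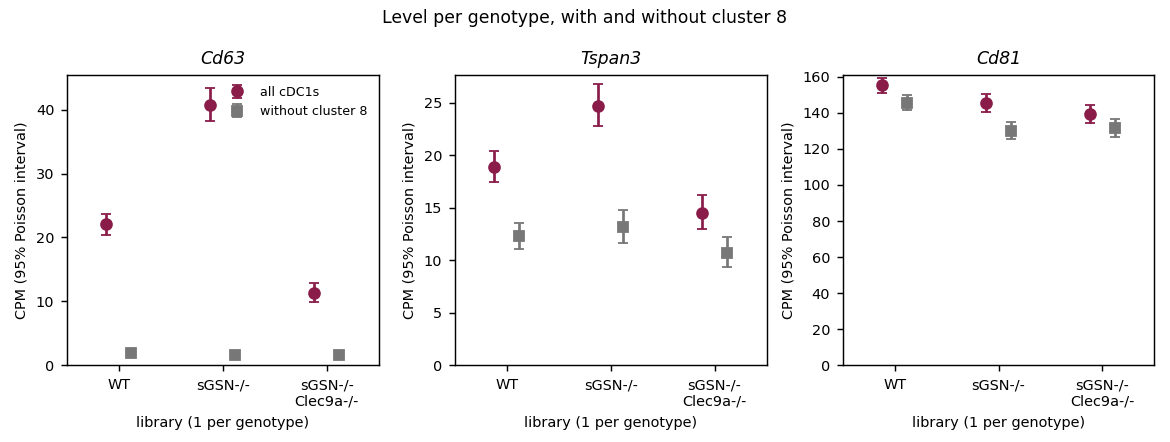
Level of *Cd63*, *Tspan3* and *Cd81* in CPM (vertical axes) in the cDC1s of each library, with exact Poisson 95% intervals, over all cDC1s (circles) and without cluster 8 (squares). *Cd63* runs from 11.3 to 40.7 CPM over all cDC1s and from 1.61 to 1.96 CPM without cluster 8.

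The rest of the family and its surroundings were described by lists. Of the 22 other tetraspanin genes in the matrices, 9 were high enough to be tested in Ccr7-high against other cDC1s. *Tspan33* rose by 0.64 ± 0.16 and *Tspan9* fell by 2.36 ± 0.86 on the log2 scale (edgeR adjusted p = 0.00226 and 0.0318), 2 calls where 38.3% of all genes passed, and the median of the 9 was -0.75 against -0.12 over all genes. In the activated cells outside the cDC1s *Tspan33* rose by 3.35 and *Tspan17* by 1.22, with 7 of the 22 tested, where 29.9% of all genes passed and the medians were -0.36 for the list and -0.01 for all genes. *Tspan33* belongs to the tetraspanins that carry the protease ADAM10.

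Known partners of tetraspanins, 14 of 17 tested, moved in both directions in Ccr7-high cDC1s, with 3 higher and 5 lower where 38.3% of all genes passed. The integrin subunits *Itga4* (2.24 ± 0.11) and *Itgb1* (1.49 ± 0.11), which form VLA-4, and *Icam1* (1.45), the ligand of LFA-1, rose. The subunits of LFA-1 itself, *Itgal* (-1.81) and *Itgb2* (-1.55), fell, as did *Cd36* (-1.19), *Sdcbp* (-0.72) and *Dpp4* (-0.53). Outside the cDC1s *Itga4* (3.13), *Itgb1* (1.07) and *Icam1* (1.82) rose as well, and so did *Itgal* (1.52) and *Cd36* (2.93), which had fallen in cDC1s. *Timp1* (-1.57), *Itgb2* (-1.14), *Igsf8* (-0.67) and *Sdcbp* (-0.31) fell outside, making 9 calls of 15 tested where 29.9% of all genes passed. The median of the list was -0.10 in Ccr7-high cDC1s and 0.10 outside, beside -0.12 and -0.01 over all genes.

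Membrane proteins of late endosomes and lysosomes, the compartments in which CD63 resides, were tested for 11 of 12 genes, of which 6 passed in Ccr7-high cDC1s and 6 in the activated cells outside, where 38.3% and 29.9% of all genes did. In Ccr7-high cDC1s *Laptm4b* (3.18 ± 0.15), *Lamp1* (2.51 ± 0.15), *Npc2* (1.09) and *Scarb2* (0.51) rose and *Cd68* (-1.10) and *Laptm5* (-0.86) fell. *Npc2*, a cholesterol carrier of the lysosome lumen, is not itself a membrane protein. *Laptm4b*, *Lamp1* and *Npc2* also rose outside the cDC1s, by 3.76, 1.57 and 1.23, while *Tmem192* (-1.06), *Cd68* (-0.90) and *Laptm5* (-0.51) fell there. The medians of the list were 0.28 and -0.00 in these comparisons. Among genes of vesicle release, also 11 of 12 tested and with 2 calls in each of these comparisons, *Hgs*, of the sorting complex ESCRT-0, rose by 0.88 and *Rab27a*, a small GTPase of exosome and granule secretion, fell by 1.84 in Ccr7-high cDC1s, with a list median of 0.05. Outside the cDC1s *Rab11a* (0.82) rose and *Tsg101* (-0.71) fell.

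In Cxcl9-high cDC1s, where 6.05% of all genes passed, 3 list genes did. *Icam1* (0.98) and *Chmp4b* (0.36), a subunit of ESCRT-III, rose and *Itgb2* (-0.64) fell, with no call among 8 other tetraspanins and 11 lysosome genes tested. The list medians were -0.50 for other tetraspanins, -0.40 for partners, -0.26 for lysosome genes and 0.06 for vesicle genes, beside -0.15 over all genes. Between the activated states, where 46.7% of all genes passed, *Laptm4b* (3.12), *Lamp1* (2.13), *Itga4* (1.66), *Itgb1* (1.29) and *Npc2* (1.24) were higher in Ccr7-high cells, and *Cd68* (-1.21), *Sdcbp* (-1.09), *Itgb2* (-0.95) and *Laptm5* (-0.66) were lower. Here the medians of 7 partners, 8 lysosome and 5 vesicle genes tested were 0.33, 0.50 and 0.16 beside -0.01 over all genes.

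Early cDC1s were below resting cDC1s in *Tspan9* (-1.64) and *Tspan33* (-0.49), of 9 other tetraspanins tested, in a comparison in which 32.2% of all genes passed. Of 14 partners tested, *Cd36* (-1.68), *Itgal* (-0.98), *Icam1* (-0.69), *Cd44* (-0.40), *Itgb1* (-0.38), *Dpp4* (-0.20) and *Sdcbp* (-0.19) were lower and *Igsf8* (1.35) and *Adam10* (0.37) higher. Of 11 lysosome genes 2 were higher (*Tmem192*, 0.64, and *Lamp1*, 0.54) and 2 lower (*Laptm4b*, -0.69, and *Npc2*, -0.32), and of 11 vesicle genes 2 were higher (*Rab27a*, 0.67, and *Tsg101*, 0.46) and 4 lower (*Hgs*, -0.61, *Rab7*, -0.44, *Rab35*, -0.36, and *Pdcd6ip*, -0.29).

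Between the subsets the shares of all genes that passed were 58.3% for cDC1-like against cDC2-like cells, 36.1% for macrophage-like against cDC2-like cells and 51.4% for pre-cDC-like against cDC1-like cells. Of 11 other tetraspanins 3 were higher in cDC1-like than cDC2-like cells, with *Tspan33* (2.86) the farthest, and 6 lower, with *Tspan8* (-4.48) the farthest. Of 10 tested in macrophage-like against cDC2-like cells 5 were higher (*Tspan32*, 3.67, the farthest) and 2 lower (*Tspan2*, -2.09, the farthest). Of 11 tested in pre-cDC-like against cDC1-like cells 4 were higher (*Upk1b*, 6.01, the farthest) and 2 lower (*Tspan9*, -3.11, and *Tspan33*, -2.84).

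The partners differed between the subsets in both directions. *Cd36*, a scavenger receptor, was the farthest above in cDC1-like against cDC2-like cells (5.05) and *Timp1*, a secreted protease inhibitor, the farthest below (-5.26), with 6 higher and 8 lower of 16. In macrophage-like against cDC2-like cells 11 of 15 were higher and 2 lower, and in pre-cDC-like against cDC1-like cells 7 of 16 were higher and 6 lower. Over all genes 58.3%, 36.1% and 51.4% passed in these comparisons, and without TMM factors the higher share of calls was 60.9% in the second and 60.7% in the third. The list medians were -0.14, 0.64 and 0.06, with those of all genes at most 0.01 from 0.

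Of the 11 lysosome genes 2 were higher and 7 lower in cDC1-like against cDC2-like cells (58.3% of all genes passed), with *Laptm4b* (3.33) and *Lamp1* (-0.94) the farthest. In macrophage-like cells (36.1% of all genes, 18.2% higher) 7 were higher, *Lamp1* by 1.51, and none was lower. In pre-cDC-like against cDC1-like cells (51.4% of all genes) 5 were higher, with *Npc1* (1.52) the farthest, and 3 lower, with *Laptm4b* (-2.91) the farthest. Of the 11 vesicle genes 7, 4 and 2 were higher and 1, 3 and 3 lower in the same order of comparisons, beside the same shares of all genes.

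In the interaction, where 12.6% of all genes passed, the change on activation was more negative in cDC1s than outside for *Cd36* (-4.14), *Itgal* (-3.37), *Tspan33* (-2.75), *Rab27a* (-2.31), *Tspan17* (-2.01), *Itga4* (-0.93) and *Rab11a* (-0.81). It was more positive for *Ptgfrn* (4.42), a partner of CD9 and CD81, and for *Lamp1* (0.90).

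By profile over the 12 deposited clusters, the genes most like *Cd63* among 6638 compared were *Ankrd33b*, *Gm47662*, *Stap2*, *Arhgap28* and *Atxn1*, with Pearson correlations of log2 CPM from 0.973 down to 0.970. These 5 were high in cluster 8 and near 0 in the others, *Ankrd33b* at 82.7 CPM in cluster 8 and 1.12 CPM in cluster 10. Those most like *Cd81* were *Nck2* (0.925), *Lima1* (0.919), *Hopx*, *Arhgap22* and *Strip2* (0.858). *Lima1*, an actin-binding protein, had 307 CPM in cluster 8 and 12.3 CPM in cluster 10, with a median of 64.7 CPM over the clusters. The correlations describe 12 points from the same libraries and carry no p. Between the tetraspanins themselves *Cd63* was opposed to *Cd37* (-0.81) and *Cd53* (-0.78).

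The genes lie on GRCm38 at chr10:128900989-128912822 (*Cd63*, + strand), chr9:56131725-56165477 (*Tspan3*, - strand), chr7:143052739-143067934 (*Cd81*, + strand), chr6:125460266-125494791 (*Cd9*, - strand), chr7:45233632-45239115 (*Cd37*, - strand), chr3:106759921-106790149 (*Cd53*, - strand), chr2:93419111-93463140 (*Cd82*, - strand), chr7:141467392-141471473 (*Cd151*, + strand) and chr12:36014557-36042500 (*Tspan13*, - strand). *Cd9*, *Cd81*, *Cd82*, *Cd37* and *Cd151* overlap genes on the opposite strand, and where the counting did not use strand their UMIs cannot be told from those of the partner. Counts were not divided by gene length, so levels were compared within a gene only.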

How the data were processed

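The authors deposited, for each library, a matrix of UMI counts per gene and barcode from Cell Ranger (cellranger 6.0.1 per the file headers) on mm10, and a table of 5806 cDC1s with their Seurat clusters. The labels name version 4.0.0 of Seurat, whereas the paper names an earlier version of Seurat and gives 4.0.0 for R. Raw counts were summed per library and group and given as CPM with no length correction. From all 30209 barcodes, those with 200 genes or more and a mitochondrial share up to the mean plus 2 SD (17.5%) were kept, leaving 28942. Each cell's UMIs were divided binomially into 2 sets. Groups came from the first set with all tetraspanins left out (scanpy 1.11.5, 2000 variable genes, 50 principal components, 20 neighbours, Leiden resolution 1), and the second was tested with edgeR 4.0.16 (TMM factors, filterByExpr, quasi-likelihood, Benjamini-Hochberg, 0.05) in R 4.3.3, tested first on simulated data. SE is the size of the log2 fold change over the root of F. Doublets were scored (6% of barcodes per library) and kept. A state needed 20 cells, and a cluster with 70% of the markers of 2 types was called mixed, both chosen after seeing the data.

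Members and lists were chosen with earlier results of these data known. All 9 tetraspanins are named in every comparison, list genes where called (between subsets by counts, with the farthest genes of some lists), and the 5 genes most correlated with *Cd63* and *Cd81*. Groups of 1 library come from 1 pool of mice and so pair by design. The deviations of the paired groups correlated by -0.0032 to 0.0640 in the 4 comparisons with a Ccr7-high, Cxcl9-high or outside activated group and by 0.0976 to 0.278 in the other 4. With 3 libraries that differ in genotype, p-values measure the spread between these libraries only. Alternatives were no TMM factors, DESeq2 1.42.0, no low-count filter, a library block, each library left out, doublets left out, another division, the deposited clusters and thinned cells. The deposited clusters and thinned cells draw on all UMIs, the first set included, so their p-values are not from held-out tests. The sources used here do not give the strand setting of the counting.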

Additional observations from a re-analysis of the deposited data

Results flagged for a closer look

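Effects of activation in cDC1s (Ccr7-high against other cDC1s) and outside them (activated cDC-like against cDC2-like cells) differed in 5 tetraspanins by an interaction term, tested with edgeR and chosen after seeing the data. Over all 10187 genes 12.6% passed. The references are unlike, several cDC1 states in the former and 1 class in the latter. The interaction cannot tell a different change on activation from different reference levels. The difference, cDC1s minus cells outside, was 2.77 for *Cd63*, 0.87 for *Cd9* and 0.79 for *Tspan3*, and -2.49 for *Cd37* and -0.88 for *Tspan13*, on the log2 scale. *Tspan3* did not pass without sGSN-/- (adjusted p = 0.126), nor *Tspan13* without WT (adjusted p = 0.0965) or with another division of the UMIs (adjusted p = 0.307). *Cd63* and *Tspan3* were higher on activation in both kinds of cell, whereas *Cd37* fell in cDC1s and had a difference of 0.06 outside. The cells outside carried macrophage, NK, T cell and cDC1 markers. For the cDC1 markers the interaction was refitted without cells of an *Xcr1*, *Clec9a* or *Cadm1* UMI. There *Cd81* turned to 0.29 and *Cd53* to 0.039, neither of them called. None of the 5 differences turned direction under any alternative run. The part of the macrophage, NK and T cell markers in these differences was not tested.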

How the results depend on the processing

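Of 80 differences of single tetraspanins, 51 of them called, 46 (40 called) kept their direction and their side of the threshold under every alternative run. Over 840 alternatives, 765 kept both, 26 lost a call, 14 gained one and 35 turned the direction. The library block gave *Cd63* in Cxcl9-high cDC1s a call (-4.00, adjusted p = 0.000293) and changed no other call of the 9 genes. Leaving out each library in turn, the number of genes called ranged from 2651 to 3553 in Ccr7-high against other cDC1s and from 851 to 1438 against Cxcl9-high. It ranged from 223 (without sGSN-/-Clec9a-/-) to 318 (without sGSN-/-) in Cxcl9-high against other cDC1s, with 289 without WT and 589 with all libraries. It ranged from 2044 (without WT) to 2576 in early against resting cells, where all libraries gave 3121, from 1812 (without sGSN-/-) to 2553 in activated cells outside the cDC1s, where all gave 2830, and from 649 (without sGSN-/-) to 1037 in the interaction, with 780 without WT and 1285 with all libraries. In cDC1-like, macrophage-like and pre-cDC-like comparisons it ranged from 5317 to 6270, 2674 to 3303 and 4432 to 5012. Fewer samples enter each such fit.

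Most reversals concerned values near 0 or *Cd151*, whose UMIs were few, and the cause was not tested. *Cd151* ranged from -1.17 (without sGSN-/-Clec9a-/-) to 1.02 with 1 library left out in Ccr7-high cells, from -6.68 to 0.19 (without sGSN-/-) in Cxcl9-high cells, from -0.13 (without sGSN-/-) to 0.71 in early cells, where it was -0.056 without sGSN-/-Clec9a-/-, and from -0.043 (without sGSN-/-Clec9a-/-) to 2.89 in the interaction. In Cxcl9-high cells it turned to 1.96 with another division and 0.55 with the deposited clusters. *Tspan13* in Cxcl9-high cells turned to 0.059 without TMM factors and 0.054 with DESeq2, and ranged from -0.0835 to 0.070 (without WT) with 1 library left out. In Ccr7-high against Cxcl9-high it turned to 0.0095 with another division. In early cells it turned to -0.0072 with no filter and -0.024 with the deposited clusters, and ranged from -0.027 (without sGSN-/-) to 0.0999. In activated cells outside it turned to -0.057 with no filter and -0.19 with another division, and ranged from -0.043 (without WT) to 0.13. *Tspan3* turned to -0.25 with thinned early cells and to -0.42 with thinned macrophage-like cells, where it ranged from -0.021 (without sGSN-/-Clec9a-/-) to 0.13. *Cd37* in activated cells outside turned to -0.061 with no filter, -0.38 without doublets and -0.35 without cells of an *Xcr1*, *Clec9a* or *Cadm1* UMI, and ranged from -0.020 (without sGSN-/-Clec9a-/-) to 0.14. *Cd82* turned to 0.13 there with another division. In cDC1-like cells it turned to 0.048 without TMM factors, 0.014 without cells under 3900 UMIs, 0.044 with another division and 0.043 with thinned cells, and ranged from -0.047 to 0.0070 (without WT). In the interaction it turned to -0.53 with another division and ranged from -0.17 (without sGSN-/-) to 0.79, *Cd81* turned to 0.0998 without doublets and 0.29 without cells of an *Xcr1*, *Clec9a* or *Cadm1* UMI, and *Cd53* to 0.039 in the last setting. *Cd151* rested on 172 UMIs in all cDC1s and *Cd63* on 133 UMIs in the cDC1s outside cluster 8.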

Other observations

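A cluster of 45 cells (5, 34 and 6 in the 3 libraries) led by *Mcpt4*, *Cma1* and *Tpsb2*, genes of mast cell proteases, could not be named from the marker lists. Its held-out *Cd63* level was 2120, 1785 and 3206 CPM from 249 UMIs, above the activated cDC-like cells in every library. *Cd9* stood at 536 ± 124 CPM and *Cd81* at 359 ± 182 CPM (SD, n = 3 libraries) in the same cells, *Tspan3* rested on 3 UMIs, and *Cd151* had none. With 5 and 6 cells in 2 of the libraries these levels are not resolved further.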
